A study of Arabidopsis thaliana with 18 samples.

Results

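Root apices of the Arabidopsis thaliana accession Landsberg erecta (Ler) were compared after 2 h on medium without phosphate and at 0 h, with 3 libraries per time. These 6 of the 18 libraries of the series were taken by their titles, which give accession, time and a replicate number from 1 to 3. The other 12 libraries are Ler after 1 h and the Columbia accession (Col) at 0, 1 and 2 h, again 3 per group. The labels give the genotype as wild type. Ler is an inbred laboratory accession that carries a defect in the receptor kinase gene ERECTA, so all Ler libraries share it. Per the labels' protocols, seedlings were grown for 7 days on nylon mesh over diluted Murashige and Skoog medium holding 500 µM phosphate. For starvation the seedlings on their mesh went onto such medium lacking phosphate, and apical root pieces of about 0.5 cm were frozen. For the 0 h libraries the protocols describe a move onto new phosphate-containing medium, while the treatment field reads that no treatment was given. No library was kept on phosphate for 2 h, so phosphate removal, the move itself and the hour of harvest cannot be told apart. The labels number the 3 libraries of a group without saying whether they came from separate batches of seedlings. The p-values therefore measure the spread between these libraries, which may be partly technical.

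Plants take up phosphorus as inorganic phosphate through PHT1 transporters of the root surface. When phosphate is short, PHR1-type transcription factors, held back by SPX proteins in phosphate-replete cells, switch on genes for transporters, secreted phosphatases, ribonucleases and the replacement of phospholipids by lipids without phosphorus. The root tip also senses external phosphate locally, through the ferroxidase LPR1 and the ATPase PDR2, and in Columbia this path stops growth of the primary root within hours to days.

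Libraries held 26788281, 24126422 and 23755413 counts at 2 h and 25752848, 27619870 and 26050966 counts at 0 h. Of 32852 features listed in all 18 libraries, 20599 passed the filter on low counts. In edgeR's quasi-likelihood test with Benjamini-Hochberg adjustment, 577 features (2.8%) had an adjusted p under 0.05, of which 452 (2.19%) were higher and 125 (0.607%) lower at 2 h. "Rose" and "fell" are used below only of features under that threshold, levels are CPM (counts scaled to a common library size) on TMM-scaled library sizes, and differences are log2 of 2 h over 0 h with their standard error (SE). Each fit was repeated 6 times, leaving out 1 of the 6 libraries each time. The count was then 227 without 0 h library 2 and 227 without 0 h library 3, 292 without 2 h library 3 and 363 without 2 h library 2. A core of 168 features, 156 higher and 12 lower, kept the call in all 6 refits. In the plain comparison of levels, all 3 libraries at 2 h lay above all 3 at 0 h for 11.3% of the features tested, and below them for 11%. Medians are given for 44 gene lists. In at least 1 of the 6 refits 6 of these medians changed sign and 26 others moved by more than 1.5 times.

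Among features with a mean of at least 5 CPM, the largest rise was that of RNS1, a secreted ribonuclease known to be made under phosphate starvation and wounding, with 181, 304 and 293 CPM at 2 h and 1.79, 2.42 and 2.59 CPM at 0 h. Its log2 difference was 6.83 ± 0.37 (SE; adjusted p = 1.41e-07). PSK5, a precursor of the growth peptide phytosulfokine, had 12.9, 31.9 and 19.7 CPM at 2 h and 0.389, 0.345 and 0.437 CPM at 0 h. XTH20, which cuts and rejoins xyloglucan in the wall, had 18.4, 32.2 and 27.9 CPM at 2 h and 0.932, 1.28 and 1.13 CPM at 0 h. In all 3 genes the lowest library at 2 h was more than 10 CPM above the highest at 0 h, and all 3 calls were kept in all 6 refits. AT5G48430, annotated as an aspartyl protease, the dirigent-like gene AT1G22900, the beta-glucosidase BGLU24 and the ethylene response factor ABR1 rose by 4.77, 4.31, 4.26 and 4.08 on the log2 scale, and these calls also stayed in all 6 refits. The largest rises further included the jasmonate-oxidising enzyme gene AT2G38240, the cold- and abscisic-acid-induced KIN1 and LTI78, the potassium transporter HAK5 and the copper protein BCB, with differences of 6.55, 5.09, 4.61, 4.91 and 4.28.

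The falls were smaller. The largest of them, in the kinase gene CIPK16, was -1.93 ± 0.42 (SE; adjusted p = 0.0225), with 5.27, 1.88 and 3.41 CPM at 2 h and 16.6, 15.3 and 8.34 CPM at 0 h. MRN1, the marneral synthase of root triterpene metabolism, had 1.89, 3.49 and 3.502 CPM at 2 h and 7.54, 9.54 and 10.7 CPM at 0 h. CER4, which makes fatty alcohols for wax and suberin, had 6.71, 8.50 and 6.48 CPM at 2 h and 10.8, 25.01 and 20.08 CPM at 0 h. The libraries did not overlap in any of these 3 genes. CIPK16 lost its call without 2 h library 2 or 3 and without 0 h library 1 or 2 (adjusted p up to 0.0899), and MRN1 and CER4 lost theirs in 5 refits, all but the one without 0 h library 1 (up to 0.102 and 0.160). Of the 12 largest falls, AT5G46900 and TIP2;3 were called in all 6 refits. AT5G46900 and its neighbour in the list AT5G46890, both lipid-transfer-type proteins, share 22.5% and 26.8% of their 50-base exon stretches with each other, so reads may have been exchanged between them. The remaining falls of this size, in AT4G32480, AT5G22920, AT1G66460, AT5G62420, AT3G26510 and the ethylene synthesis gene ACS2, lay between -1.71 and -1.28, and each of these calls was lost in 2 to 5 refits (adjusted p up to 0.137).

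**Figure D1:**
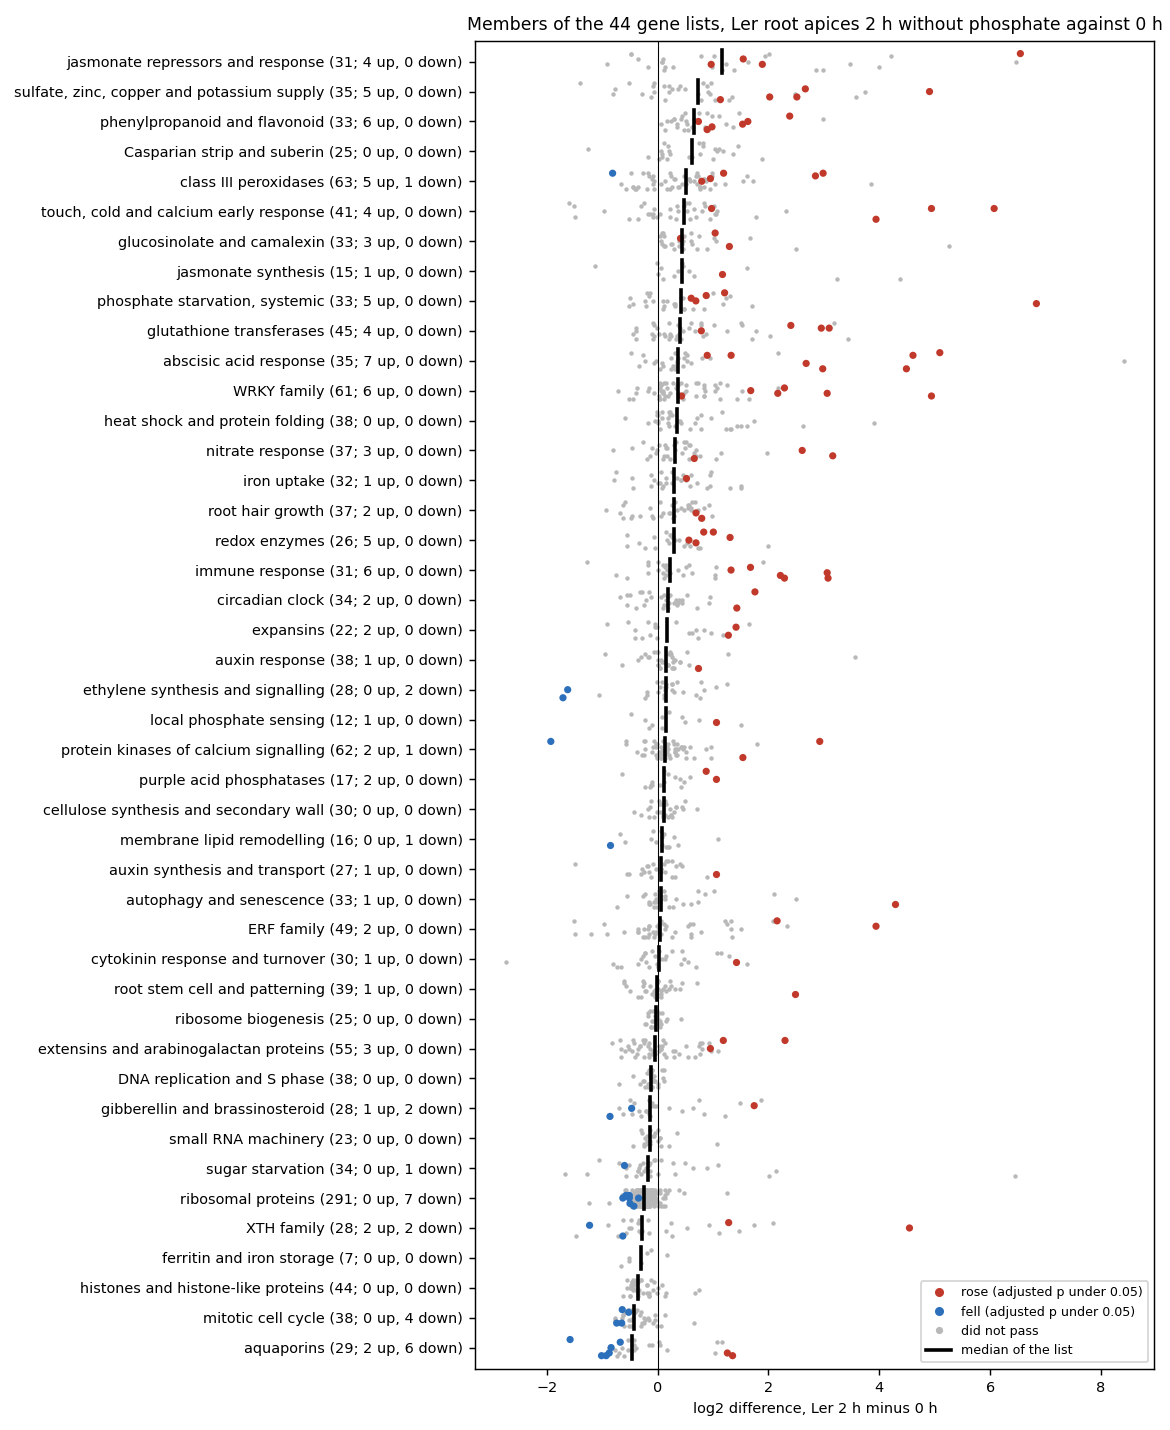
Log2 difference (x axis, Ler 2 h minus 0 h) of every tested member of 44 gene lists, 1 list per row in the order of its median (black bar); red points rose and blue points fell at an adjusted p under 0.05, grey points did not pass. The jasmonate response list has the highest median (1.16) and the aquaporins the lowest (-0.46), against -0.03 over all features.

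Of 33 tested members of the list for the systemic phosphate-starvation response, 5 rose (2.19% of all features did) and 0 fell; the median difference was 0.41, against -0.03 over all features tested, and lay between 0.21 (without 2 h library 1) and 0.57 when 1 library was left out. Besides RNS1, the genes that rose were PAP10, AT1G63010, PHT1;4 and PHF1. They are shown with 250 bases of sequence upstream of the gene start in 4 cases, beside 2 list members that did not pass, because PHR1 acts through a short motif, P1BS (GNATATNC), in its targets. Sequences are from RefSeq (TAIR10.1, Columbia, read 5′ to 3′ on the gene's strand), in lower case with P1BS matches and W-box matches (TTGAC, the core bound by WRKY factors) in capitals. No Ler sequence was used here.
RNS1 (AT2G02990), chr2:873256-873505, plus strand: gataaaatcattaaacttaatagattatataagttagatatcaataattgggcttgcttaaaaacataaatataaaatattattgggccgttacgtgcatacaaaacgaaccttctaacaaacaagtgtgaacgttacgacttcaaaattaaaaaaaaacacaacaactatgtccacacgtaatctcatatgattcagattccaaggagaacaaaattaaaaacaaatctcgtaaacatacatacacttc
PAP10 (AT2G16430), chr2:7123080-7123329, minus strand: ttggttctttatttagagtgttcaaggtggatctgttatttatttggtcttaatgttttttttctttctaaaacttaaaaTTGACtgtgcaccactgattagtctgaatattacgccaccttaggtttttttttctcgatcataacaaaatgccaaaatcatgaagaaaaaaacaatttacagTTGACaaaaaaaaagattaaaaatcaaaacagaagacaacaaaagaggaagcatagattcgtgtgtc
PHT5;1 (AT1G63010), chr1:23352832-23353081, minus strand: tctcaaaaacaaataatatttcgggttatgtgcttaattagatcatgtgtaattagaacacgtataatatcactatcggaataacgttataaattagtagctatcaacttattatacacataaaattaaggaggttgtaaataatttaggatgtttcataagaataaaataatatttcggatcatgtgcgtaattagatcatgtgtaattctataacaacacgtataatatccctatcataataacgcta
PHT1;4 (AT2G38940), chr2:16256907-16257156, plus strand: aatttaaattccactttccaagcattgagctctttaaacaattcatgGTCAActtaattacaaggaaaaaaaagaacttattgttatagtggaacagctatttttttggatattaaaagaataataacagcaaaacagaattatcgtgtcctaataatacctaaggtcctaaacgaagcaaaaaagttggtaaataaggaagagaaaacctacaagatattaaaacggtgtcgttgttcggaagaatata
PHT1;2 (AT5G43370), chr5:17415448-17415697, plus strand: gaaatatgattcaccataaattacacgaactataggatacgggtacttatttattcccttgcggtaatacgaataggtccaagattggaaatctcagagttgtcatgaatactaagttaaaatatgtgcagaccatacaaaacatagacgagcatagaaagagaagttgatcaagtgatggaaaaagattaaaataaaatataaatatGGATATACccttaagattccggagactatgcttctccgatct
SPX3 (AT2G45130), chr2:18606160-18606409, plus strand: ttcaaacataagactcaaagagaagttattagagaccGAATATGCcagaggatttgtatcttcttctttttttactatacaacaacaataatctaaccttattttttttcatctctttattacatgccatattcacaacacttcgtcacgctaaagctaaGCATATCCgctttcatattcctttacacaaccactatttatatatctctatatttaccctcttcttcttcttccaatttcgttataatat

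None of the 4 genes shown that rose had a P1BS match in this window, while PHT1;2 had 1, which ended 35 bases before the gene start, and SPX3 had 2. Over the list, 6 of 33 windows held P1BS on either strand, against 1089 of 19932 windows (5.46%) of all protein-coding genes tested, 28 of 446 (6.28%) of those that rose and 12 of 121 (9.92%) of those that fell. None of these 6 list members passed (adjusted p from 0.0678 to 0.7415). Their log2 differences ran from -0.20 in AT1G73010 to 1.31 in PHT1;2. PAP10 had 2 W-box matches and PHT1;4 had 1; the window of PAP10 overlaps the annotated RNA gene AT2G06625. A match is a stretch of letters and not a measured binding site, and matches outside the window were not looked for.

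PAP10, a purple acid phosphatase attached to the root surface that frees phosphate from organic compounds, had 36.7, 39.2 and 47.4 CPM at 2 h and 24.1, 18.9 and 24.2 CPM at 0 h. AT1G63010 encodes PHT5;1 (VPT1), which moves phosphate into the vacuole, and had 220, 184 and 263 CPM at 2 h and 139, 143 and 156 CPM at 0 h. PHT1;4, a high-affinity phosphate uptake transporter, had 150, 88.8 and 129 CPM at 2 h and 55.7, 41.9 and 61.1 CPM at 0 h. All 3 genes were separated between the times, with differences of 0.88 ± 0.20, 0.61 ± 0.15 and 1.21 ± 0.31 (SE; adjusted p = 0.0313, 0.0377 and 0.0493). PHF1, which lets PHT1 proteins leave the endoplasmic reticulum, had 85.4, 65.5 and 83.3 CPM at 2 h and 47.6, 45.6 and 51.9 CPM at 0 h, a difference of 0.69 ± 0.18 (SE; adjusted p = 0.0495). The calls other than RNS1 sit near the threshold. PAP10 lost its call in all refits except that without 2 h library 1, and AT1G63010, PHT1;4 and PHF1 in all except that without 2 h library 2, with adjusted p up to 0.138, 0.177, 0.189 and 0.168.

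The further list members described here were picked after their values were seen. PHT1;1, the most used uptake transporter of phosphate-fed roots, had 356, 153 and 336 CPM at 2 h and 137, 107 and 113 CPM at 0 h (log2 difference 1.24 ± 0.34, adjusted p = 0.0611). PHT1;2 had 193, 85.4 and 206 CPM at 2 h and 67.8, 63.2 and 64.9 CPM at 0 h (1.31 ± 0.36, adjusted p = 0.0678). Neither overlapped between the times and neither passed; PHT1;1 and PHT1;2 share 42.5% and 45.6% of their 50-base exon stretches with one another or with PHT1;3, so their reads may be mixed. The SPX and noncoding-RNA reporters of phosphate shortage overlapped between the times and did not pass. SPX1, an inhibitor of PHR1, had 61.9, 24.6 and 35.5 CPM at 2 h and 31.6, 21.8 and 45.5 CPM at 0 h. SPX3 had 0.985, 0.521 and 0.306 CPM at 2 h and 0.699, 0.207 and 0.437 CPM at 0 h, and IPS1, an RNA that sequesters the microRNA against PHO2, had 6.40, 2.56 and 2.76 CPM at 2 h and 1.36, 1.35 and 3.13 CPM at 0 h. The 2 h library 2 was the lowest of its group in AT1G63010, PHT1;1, PHT1;2, PHT1;4, PHF1, SPX1 and IPS1. It was the highest in RNS1 and lay in the middle in PAP10 and SPX3.

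**Figure D2:**
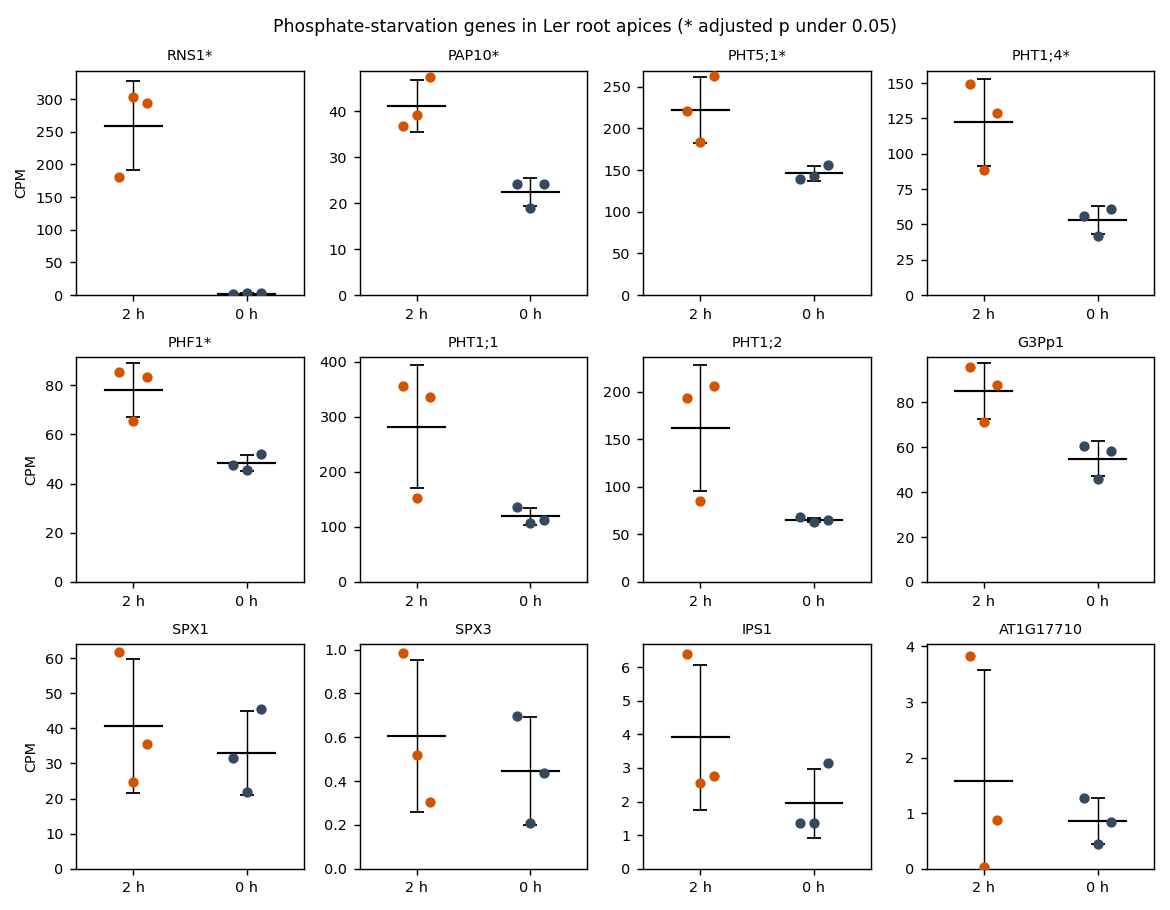
CPM (y axis, linear, from 0) of 12 phosphate-starvation genes in the 3 libraries at 2 h (left, orange) and the 3 at 0 h (right, dark); bars are the mean and SD, and a star marks an adjusted p under 0.05. RNS1 and the transporter genes lie higher at 2 h without overlap, while SPX1, SPX3, IPS1 and AT1G17710 overlap.

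Of the neighbouring phosphate lists, the 16 tested genes of membrane lipid remodelling had 0 that rose and 1 that fell (0.607% of all features fell), with a median difference of 0.08 (0.01 without 2 h library 1 and 0.13 without 2 h library 2). That gene was MGD2, a galactolipid synthase of phosphate-starved plants, with 5, 3.45 and 3.76 CPM at 2 h and 6.10, 8.33 and 7.69 CPM at 0 h; it lost its call without 2 h library 2 or 3 or 0 h library 2 or 3 (adjusted p up to 0.183). SQD2, which makes sulfolipid, had a difference of -0.08 ± 0.20. Among 17 purple acid phosphatases PAP10 and PAP7 rose (2.19% of all features did). PAP7 had 67.7, 113 and 111 CPM at 2 h and 44.8, 44.5 and 50.6 CPM at 0 h (lost without any library but 2 h library 1, adjusted p up to 0.122). Of 12 local phosphate-sensing genes, 1 rose (2.19% of all features did) and 0 fell. It was the ferroxidase gene LPR1, with 8.22, 15.03 and 11.3 CPM at 2 h and 5.91, 4.97 and 5.76 CPM at 0 h, a difference of 1.06 ± 0.22 (SE; adjusted p = 0.0186). It lost its call without 2 h library 2 or 3 or 0 h library 2 or 3 (up to 0.0925), and LPR1 shares exonic positions with AT1G23020 on the opposite strand. Its partner PDR2 had 168, 175 and 179 CPM at 2 h and 159, 167 and 168 CPM at 0 h and did not pass.

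Of 35 tested genes for sulfate, zinc, copper and potassium supply, 5 rose (2.19% of all features did) and 0 fell. The median difference was 0.73, and 0.36 without 2 h library 1. SULTR1;2, the main sulfate uptake transporter of the root, had 845, 759 and 832 CPM at 2 h and 145, 136 and 146 CPM at 0 h. Its difference was 2.51 ± 0.26 (SE; adjusted p = 0.000127), and even the lowest library at 2 h was far above the 0 h group. HAK5, the high-affinity potassium transporter, had 43.6, 23.48 and 25.4 CPM at 2 h and 1.67, 0.449 and 0.984 CPM at 0 h, a difference of 4.91 ± 0.69 (SE; adjusted p = 0.00138). ZIP9, a zinc transporter of the plasma membrane family, had 6.06, 3.53 and 6.96 CPM at 2 h and 1.55, 1.49 and 1.02 CPM at 0 h. These 3 genes were separated between the times and kept their calls in all 6 refits. LSU3, a protein induced by low sulfur, and APR2, which reduces activated sulfate, rose by 2.67 and 1.13; LSU3 lost its call without 2 h library 1 or 0 h library 2 or 3 (up to 0.0995) and APR2 without any library but 2 h library 3 (up to 0.0930).

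Of 37 nitrate-response genes, 3 rose (2.19% of all features did) and 0 fell, 14 lay higher at 2 h without overlap (11.3% of all features did), and the median difference was 0.32 (0.16 without 2 h library 1). WR3, also called NRT3.1, is the partner protein that the NRT2 nitrate transporters need. It had 133, 168 and 175 CPM at 2 h and 23.1, 29.3 and 25.6 CPM at 0 h, a difference of 2.61 ± 0.25 (SE; adjusted p = 0.00011), kept in all 6 refits. NRT2:1, the main high-affinity nitrate transporter, had 37.96, 17.7 and 55.4 CPM at 2 h and 2.88, 5.39 and 4.12 CPM at 0 h (3.16 ± 0.77, adjusted p = 0.0383). GLT1, the glutamate synthase that uses NADH, had 1921, 1442 and 1880 CPM at 2 h and 1119, 1063 and 1132 CPM at 0 h (0.66 ± 0.14, adjusted p = 0.0147). NRT2:1 lost its call in all refits except that without 2 h library 2 (up to 0.149), and GLT1 without 2 h library 3 or 0 h library 2 or 3 (up to 0.0702). Of 32 iron-uptake genes 1 rose, a share near that of all features, and 0 fell (median 0.30): BTS, a ubiquitin ligase that limits the iron response, had 110, 110 and 131 CPM at 2 h and 81.9, 80.8 and 83.7 CPM at 0 h, and lost its call in all refits but that without 2 h library 1 (up to 0.174). The coumarin exporter ABCG37 had 965, 731 and 1086 CPM at 2 h and 483, 435 and 532 CPM at 0 h (0.94 ± 0.26, adjusted p = 0.0622). None of the 7 ferritin and iron-storage genes passed. Their median was -0.30, and -0.54, -0.48 and -0.19 without 2 h library 1, 2 and 3, and FER1 had 133, 136 and 145 CPM at 2 h and 270, 175 and 212 CPM at 0 h.

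**Figure D3:**
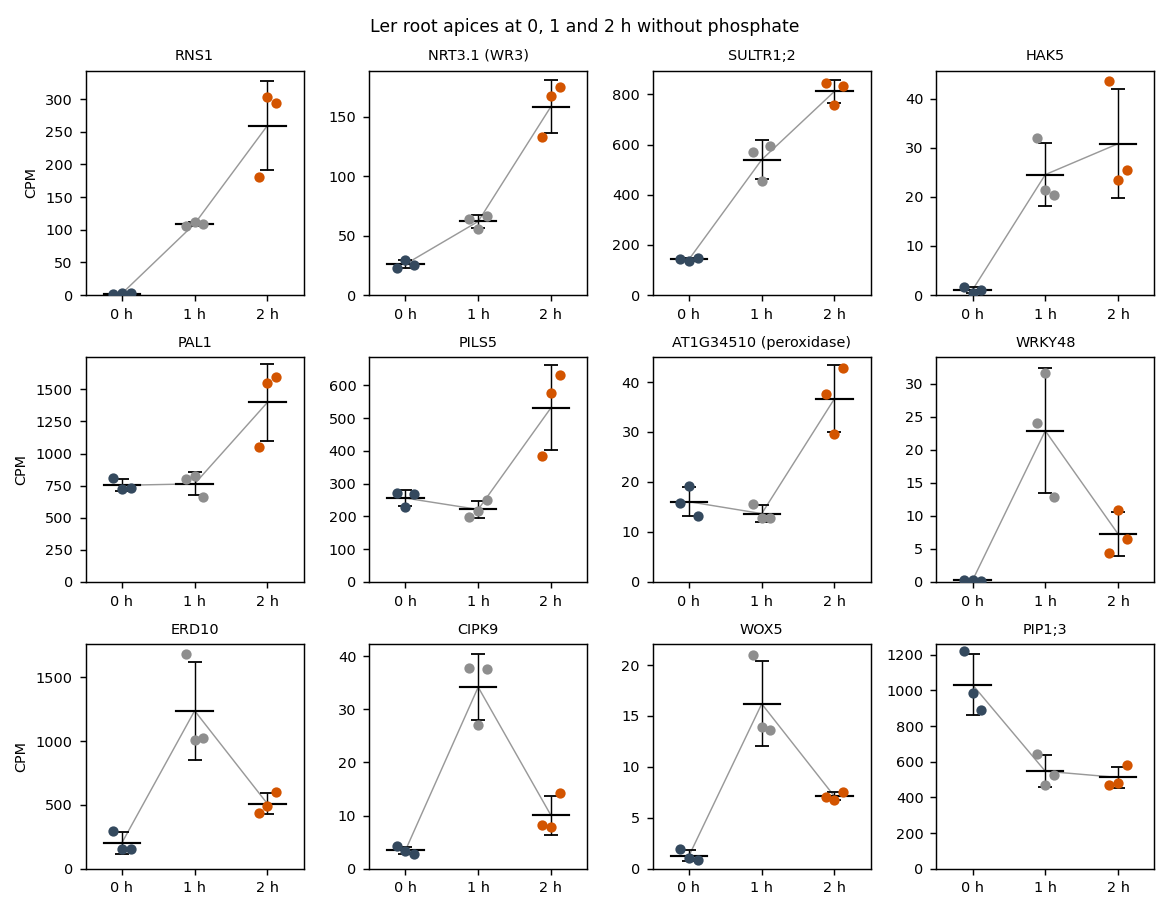
CPM (y axis, linear, from 0) of 12 genes at 0, 1 and 2 h in Ler (x axis), with the 3 libraries of each time as points and the mean and SD as bars. RNS1, NRT3.1 and SULTR1;2 are higher at each later time, PAL1, PILS5 and AT1G34510 have all 3 libraries at 2 h above those of the other times, and WRKY48, ERD10, CIPK9 and WOX5 are highest at 1 h.

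The 1 h libraries give the same genes at an earlier time. After 1 h 1404 features (6.82%) differed from 0 h, 878 (4.26%) higher and 526 (2.55%) lower; between 2 h and 1 h 227 (1.1%) differed, 144 (0.699%) higher and 83 (0.403%) lower at 2 h. The comparisons share libraries with that of 2 h against 0 h and are given side by side. NRT3.1 (WR3) had differences of 2.61 at 2 h against 0 h, 1.25 at 1 h against 0 h and 1.36 at 2 h against 1 h (adjusted p = 0.00011, 0.00451 and 0.012). RNS1 had 6.83, 5.58 and 1.25 in the same order, and its 2 h against 1 h call had an adjusted p of 0.0481. CIPK9, a kinase of potassium and nitrate signalling, had 8.14, 7.77 and 14.2 CPM at 2 h, 37.8, 27.0 and 37.7 CPM at 1 h and 4.23, 3.28 and 2.84 CPM at 0 h. It rose against 0 h (1.54 ± 0.27, adjusted p = 0.0064, all 6 refits) and was lower at 2 h than at 1 h (-1.77, adjusted p = 0.00425). The count of 227 was 61 to 367 when 1 library was left out: 61 without 2 h library 3, 72 without 1 h library 2, 82 without 1 h library 1, 119 without 2 h library 1 and 367 without 2 h library 2.

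Jasmonate is the hormone of wounding and touch. Of 31 tested jasmonate repressors and response genes, 4 rose (2.19% of all features did) and 0 fell at 2 h, against 13 that rose (4.26% of all features did) and 1 that fell at 1 h; the medians were 1.16 at 2 h and 1.52 at 1 h. At 2 h 17 of the 31 were above all 0 h libraries (11.3% of all features were). AT5G05600, an enzyme known as JAO2 that hydroxylates jasmonic acid, had 155, 205 and 225 CPM at 2 h and 91.8, 48.2 and 60.5 CPM at 0 h (1.55 ± 0.31, adjusted p = 0.0138). CYP94B1, which oxidises the active conjugate of the hormone, had 15.8, 26.5 and 24.4 CPM at 2 h and 10.1, 3.32 and 4.63 CPM at 0 h (1.89 ± 0.42, adjusted p = 0.0228), and the repressor JAZ3 rose by 0.97. AT2G38240, a second enzyme of this kind called JAO4, had 2.88, 34.2 and 11.9 CPM at 2 h, 127, 163 and 41.8 CPM at 1 h and 0.117, 0.345 and 0.0364 CPM at 0 h. At 0 h library 3 was under 3 counts, library 1 near 3 counts (0.117 CPM) and library 2 above them, and the 3 libraries at 2 h spread widely. No call of this list held in all 6 refits: AT5G05600 lost it without 2 h library 3 or 0 h library 2 or 3, AT2G38240 without 2 h library 2 or any 0 h library, CYP94B1 without 2 h or 0 h library 2 or 3 and JAZ3 without any library but 2 h library 1, with adjusted p up to 0.076, 0.102, 0.12 and 0.169. Of 15 synthesis genes 1 rose and 0 fell at 2 h, and 8 rose at 1 h. It was the lipoxygenase gene LOX6, with 70.7, 92.01 and 87.0 CPM at 2 h, 160, 181 and 113 CPM at 1 h and 37.8, 38.5 and 35.8 CPM at 0 h (lost in all refits but that without 2 h library 1, up to 0.132).

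Of 41 early-response genes of touch, cold and calcium signals, 4 rose (2.19% of all features did) and 0 fell at 2 h, against 13 and 0 at 1 h (4.26% of all features rose there). At 2 h against 1 h 0 of them rose and 1 fell. The median at 2 h was 0.48, and 0.82 without 0 h library 1 and 0.30 without 0 h library 2. WRKY48, a regulator of defence and stress genes, had 4.36, 10.9 and 6.52 CPM at 2 h, 24.1, 31.7 and 12.8 CPM at 1 h and 0.272, 0.242 and 0.182 CPM at 0 h. Its difference at 2 h was 4.94 ± 0.59 (SE; adjusted p = 0.000359), kept in all 6 refits. MYB15, a regulator of defence and cold genes, had 3.64, 7.73 and 4.42 CPM at 2 h and 0.194, 0 and 0.0364 CPM at 0 h. RRTF1 (ERF109), a wound-induced regulator, had 1.17, 1.44 and 1.53 CPM at 2 h and 0.0777, 0.0345 and 0.146 CPM at 0 h. Both were near or under 3 counts at 0 h. MYB15 lost its call without 0 h library 2 or 3 (up to 0.0598). RRTF1 lost it without 2 h library 3 or any 0 h library (up to 0.0968). PUB22, a ubiquitin ligase of stress responses, rose by 0.97 and lost the call without 2 h library 1 or 3 or 0 h library 2 or 3 (up to 0.163). Among 61 WRKY genes 6 rose and 0 fell, with a median of 0.37 (0.15 without 2 h library 1). Of the 49 ethylene response factors on that list, which holds neither ABR1 nor EBP, 2 rose (RAP2.6 and RRTF1) and 0 fell, and their median was 0.04 (0.29 without 0 h library 1). WRKY29, of the flagellin response, had 39.7, 27.7 and 29.5 CPM at 2 h, 123.1, 57.1 and 67.5 CPM at 1 h and 9.87, 3.70 and 6.30 CPM at 0 h (lost without 0 h library 2 or 3, up to 0.0987). RAP2.6 had 66.6, 146 and 125 CPM at 2 h and 38.9, 15.1 and 21.8 CPM at 0 h (lost without 2 h or 0 h library 2 or 3, up to 0.114). Of the 62 calcium-signalling kinases, CPK22 and CIPK9 rose and CIPK16 fell, and the CPK22 call was kept in all 6 refits (2.93 ± 0.47, adjusted p = 0.00367).

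Of 31 immune-response genes 6 rose (2.19% of all features did) and 0 fell. The median was 0.23, and 0.38, 0.38 and 0.43 without 0 h library 1, 0 h library 2 and 2 h library 2. The flagellin receptor FLS2 (AT5G46330) had 3.18, 4.01 and 3.11 CPM at 2 h and 0.855, 0.484 and 0.874 CPM at 0 h. BIK1, the kinase that acts beside such receptors, had 34.4, 37.9 and 38.1 CPM at 2 h and 17.0, 13.5 and 13.6 CPM at 0 h. MLO12, a membrane protein tied to powdery mildew susceptibility, had 241, 217 and 222 CPM at 2 h and 71.1, 68.2 and 73.5 CPM at 0 h, and the flagellin-induced kinase gene FRK1 had 11.8, 9.46 and 16.3 CPM at 2 h and 1.48, 0.967 and 2.00 CPM at 0 h. The groups were apart in all 4 genes, with differences of 2.22, 1.33, 1.68 and 3.08 (adjusted p = 0.00209, 0.0032, 0.00641 and 0.00713) that were called in all 6 refits.

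Of 35 tested abscisic acid and cold-protection genes, 7 rose (2.19% of all features did) and 0 fell, and the median difference was 0.38. At 1 h the median was 0.91 and 12 rose (4.26% of all features did). LTI78 (RD29A), a standard reporter of drought and cold, had 160, 403 and 429 CPM at 2 h and 17.44, 6.22 and 17.1 CPM at 0 h (4.61 ± 0.59, adjusted p = 0.000629). KIN1, a small protein made in the cold, had 41.2, 115 and 75.6 CPM at 2 h and 3.81, 1.59 and 1.42 CPM at 0 h (5.09 ± 0.86, adjusted p = 0.0051). Both calls were kept in all 6 refits. The dehydrin gene ERD10 had 435, 495 and 597 CPM at 2 h, 1679, 1009 and 1023 CPM at 1 h and 299.6, 154 and 155 CPM at 0 h; KIN2, HVA22D, RAB18 (AT5G66400) and the abscisic acid hydroxylase CYP707A1 were the others. KIN2 lost its call without 0 h library 2 or 3 (up to 0.0693), HVA22D without 2 h library 2 or any 0 h library (up to 0.136), RAB18 without any library but 2 h library 1 (up to 0.1455), and ERD10 without 2 h or 0 h library 2 or 3 (up to 0.159). HVA22D had 31.7, 239 and 64.6 CPM at 2 h and 17.64, 18.0 and 16.8 CPM at 0 h, so 2 h library 2 set most of its mean.

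The phenylpropanoid pathway turns phenylalanine into lignin, flavonols and coumarins. Of 33 genes tested, 6 rose (2.19% of all features did) and 0 fell, all 33 differences were positive, 21 were above all 0 h libraries (11.3% of all features were), and the median was 0.66, against 0.02 at 1 h. PAL2 and PAL1 encode phenylalanine ammonia-lyase, the entry enzyme. PAL2 had 463, 607 and 669 CPM at 2 h, 257, 278 and 207 CPM at 1 h and 315, 271 and 294 CPM at 0 h, and PAL1 had 1054, 1546 and 1593 CPM at 2 h, 803, 826 and 662 CPM at 1 h and 807, 721 and 730 CPM at 0 h. The 1 h and 0 h libraries overlapped in both. PAL2 was higher at 2 h than at 1 h by 1.23 (adjusted p = 0.00682), and the same difference of PAL1 was 0.87 (adjusted p = 0.0643). MYB12, the activator of flavonol genes, had 44.8, 72.5 and 56.2 CPM at 2 h and 11.2, 11.9 and 10.1 CPM at 0 h (2.38 ± 0.26, adjusted p = 0.000156) and kept its call in all 6 refits. UGT78D2, which adds glucose to flavonols, had 117, 231 and 151 CPM at 2 h and 52.4, 58.1 and 50.8 CPM at 0 h, and the lignin enzyme gene CAD5 and cinnamate hydroxylase gene C4H rose by 1.53 and 0.74. The calls other than MYB12 were lost in 3 to 5 refits, PAL2 without 2 h library 3 or 0 h library 2 or 3, UGT78D2 without 2 h library 2 or any 0 h library, CAD5 without 2 h or 0 h library 2 or 3, and PAL1 and C4H without any library but 2 h library 1, with adjusted p up to 0.0683, 0.0909, 0.0799, 0.149 and 0.187.

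Glucosinolate and camalexin genes, which make sulfur-containing defence compounds, numbered 33. Of these 3 rose (2.19% of all features did) and 0 fell, all 33 differences were positive and the median was 0.45 (0.20 without 2 h library 1), against 0.04 at 1 h. MYB122, a regulator of indole glucosinolates, had 7.16, 6.97 and 12.2 CPM at 2 h and 3.42, 3.59 and 3.68 CPM at 0 h (1.296 ± 0.22, adjusted p = 0.00515, all 6 refits). CYP81F4, which modifies indole glucosinolates, had 434, 421 and 631 CPM at 2 h and 295, 200.1 and 228 CPM at 0 h, and the tryptophan synthase gene TSA1 (AT3G54640) had 150, 124 and 134 CPM at 2 h and 110, 93.7 and 103 CPM at 0 h. CYP81F4 lost its call without 2 h library 3 or 0 h library 2 or 3, and TSA1 without 2 h library 1 or 3 or 0 h library 2 or 3 (adjusted p up to 0.150 and 0.147).

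Of 63 class III peroxidases, which act in the wall, 5 rose (2.19% of all features did) and 1 fell, with a median of 0.51 (0.34 without 2 h library 1). AT4G36430 had 47.2, 53.3 and 43.6 CPM at 2 h and 9.44, 3.45 and 5.32 CPM at 0 h (2.99 ± 0.49, adjusted p = 0.00409, all 6 refits). AT1G34510 had 37.7, 29.5 and 42.8 CPM at 2 h, 15.6, 12.7 and 12.7 CPM at 1 h and 15.8, 19.1 and 13.3 CPM at 0 h, and the 1 h and 0 h libraries overlapped; its call was lost without 0 h library 3 (0.0548). The gene that fell, AT2G39040, had 39.9, 59.9 and 63.3 CPM at 2 h and 101, 101 and 84.1 CPM at 0 h and lost the call in each refit (up to 0.152). Of 45 glutathione transferases 4 rose and 0 fell (median 0.41, and 0.70 without 0 h library 1). GSTU5 had 70.9, 128 and 113 CPM at 2 h and 20.09, 8.84 and 7.61 CPM at 0 h (3.096 ± 0.48, adjusted p = 0.00285), and GSTU4 and GSTF10 rose by 2.405 and 0.79; all 3 were called in all 6 refits, and ERD9 lost its call without 2 h library 2 or 0 h library 2 or 3 (up to 0.0859). Of 26 redox enzymes 5 rose and 0 fell. Their median was 0.29, and 0.57, 0.49 and 0.18 without 0 h library 1, 2 h library 2 and 2 h library 3. NDB2, an alternative NADH dehydrogenase of mitochondria, had 400.4, 411 and 491 CPM at 2 h and 229.9, 233 and 268 CPM at 0 h, and the peroxidase GPX6 had 536, 589.7 and 811 CPM at 2 h and 239, 268 and 275 CPM at 0 h, both called in all 6 refits.

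Of 28 xyloglucan endotransglucosylase/hydrolase (XTH) genes, which act on the wall, 2 rose and 2 fell (2.19% and 0.607% of all features did). The median was -0.29, and -0.14, -0.44 and -0.09 without 0 h library 1, 2 h library 1 and 2 h library 2. XTH17 and XTH19, known from the elongation zone, had 59.1, 23.0 and 59.7 CPM and 93.0, 78.2 and 89.6 CPM at 2 h, against 105, 118 and 108 CPM and 113, 143 and 146 CPM at 0 h. Both were lower without overlap, with differences of -1.23 ± 0.30 and -0.63 ± 0.13 (SE; adjusted p = 0.0362 and 0.0193). XTH13 had 90.3, 61.5 and 75.1 CPM at 2 h, 39.95, 23.1 and 32.1 CPM at 1 h and 36.3, 32.4 and 24.5 CPM at 0 h (1.28 ± 0.32, adjusted p = 0.0465). XTH17 lost its call without any library but 2 h library 1, XTH19 without 2 h or 0 h library 2 or 3 and XTH13 in each refit (up to 0.116, 0.103 and 0.192). Of 22 expansins 2 rose, EXPA1 and EXPA17, by 1.42 and 1.28 (median 0.17, and 0.39, 0.06 and 0.31 without 0 h library 3, 2 h library 1 and 2 h library 3). Likewise 3 of 55 extensins and arabinogalactan proteins rose with 0 falling; their median of -0.04 lay between -0.17 and 0.17 when 1 library was left out. The extensin gene EXT11 had 243, 181 and 367 CPM at 2 h and 126, 115 and 106 CPM at 0 h and was higher at 2 h than at 1 h by 1.48 (adjusted p = 0.0198). It lost the 2 h against 0 h call in all refits but that without 2 h library 2, EXPA1 in all but that without 2 h library 3 and EXPA17 in all but that without 2 h library 1 (up to 0.177, 0.121 and 0.169). The 30 genes of cellulose synthesis and secondary wall had 0 calls and a median of 0.12 (-0.05 without 2 h library 3 and 0.25 without 2 h library 2).

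Aquaporins are the water channels of cell membranes. Of 29 tested, 6 fell and 2 rose (0.607% and 2.19% of all features did). Of the 29, 12 were below all 0 h libraries (11% of all features were). The median difference was -0.46 (-0.60 to -0.36 when 1 library was left out). In bulk RNA such a fall can come from fewer cells of a type or from less RNA per cell, and these cannot be told apart here. TIP2;3, a channel of the vacuolar membrane that also passes ammonia, had 41.0, 30.7 and 65.8 CPM at 2 h and 156, 131 and 123.3 CPM at 0 h (-1.58 ± 0.26, adjusted p = 0.00388). PIP1C (PIP1;3) of the plasma membrane had 473, 483 and 581 CPM at 2 h and 1220, 988 and 889 CPM at 0 h, and PIP3 (PIP2;7) had 505, 386 and 629 CPM at 2 h and 944, 905 and 867 CPM at 0 h. The groups did not overlap in these 3 genes, which were called in all 6 refits, with PIP1C at -1.01 ± 0.17 and PIP3 at -0.84 ± 0.15 (adjusted p = 0.00494 and 0.00633). PIP2;4, NLM1 (NIP1;1) and DELTA-TIP fell by 0.93, 0.87 and 0.67 on the log2 scale. The 2 that rose, NIP3;1 (1.26) and NIP1;2 (1.35), belong to the nodulin-26-like subfamily, whose members pass small solutes such as boric or silicic acid analogues as well as water. NLM1, which fell, belongs to the same subfamily. PIP2;4 lost its call without 2 h library 1 or 2 or 0 h library 2 (up to 0.0612), NLM1 without 2 h library 2 or 3 or any 0 h library (up to 0.130) and NIP3;1 without 0 h library 3 (0.0798). At 1 h 10 of the 29 fell (2.55% of all features did at that time) and 0 rose.

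Of 38 mitotic genes 4 fell (0.607% of all features did) and 0 rose, 35 of the 38 differences were negative, and 18 genes were below all 0 h libraries (11% of all features were). The median was -0.42, and -0.47 to -0.38 when 1 library was left out. AUR2, an Aurora kinase of chromosome segregation, had 10.5, 10.5 and 8.80 CPM at 2 h and 14.8, 16.2 and 18.7 CPM at 0 h. CYC1BAT, the B-type cyclin CYCB1;2, had 23.0, 22.3 and 21.1 CPM at 2 h and 31.0, 33.3 and 39.7 CPM at 0 h. HIK (HINKEL), a kinesin that builds the division plate, had 27.8, 25.8 and 22.9 CPM at 2 h and 37.1, 40.2 and 41.7 CPM at 0 h, and SYP111 (KNOLLE), which fuses vesicles there, had 33.0, 30.4 and 29.0 CPM at 2 h and 40.1, 45.7 and 46.9 CPM at 0 h. Each gene was lower in all 3 libraries at 2 h, with differences of -0.74, -0.65, -0.64 and -0.52 (SE 0.14, 0.14, 0.14 and 0.12; adjusted p = 0.00791, 0.0189, 0.0214 and 0.0253). AUR2 lost its call without 0 h library 3 (0.0512), and the other 3 without 2 h or 0 h library 2 or 3 (up to 0.116). The 38 genes of DNA replication had 0 calls and a median of -0.12 (-0.22 without 0 h library 1 to -0.05 without 0 h library 3), and the ribonucleotide reductase gene TSO2 had 64.5, 64.0 and 52.5 CPM at 2 h and 67.8, 67.1 and 68.0 CPM at 0 h. The 44 histone genes had 0 calls, a median of -0.36 (-0.23 without 2 h library 3) and 15 members below all 0 h libraries.

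**Figure D4:**
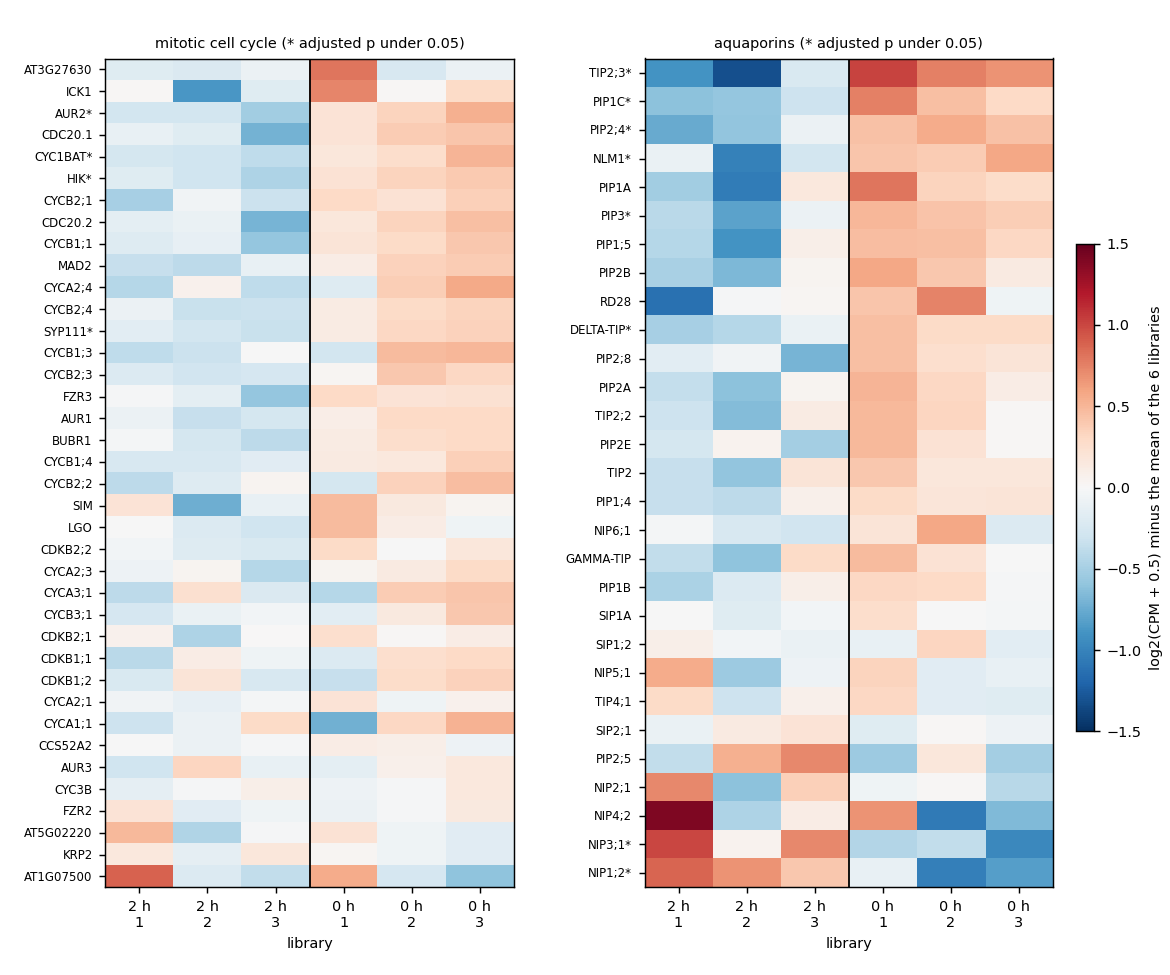
Levels of the 38 mitotic genes (left) and 29 aquaporins (right), 1 row per gene in the order of its difference and 1 column per library, 2 h before 0 h; colour is log2(CPM + 0.5) minus the mean of the 6 libraries, and a star marks an adjusted p under 0.05. Negative differences number 35 of 38 among the mitotic genes and 21 of 29 among the aquaporins.

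Ribosomal protein genes, 291 in number, had 7 that fell (0.607% of all features did) and 0 that rose, and 275 negative differences, with 90 below all 0 h libraries (11% of all features were). The median was -0.24, and lay between -0.34 and -0.10 when 1 library was left out, the last without 2 h library 3. PRPL11, a protein of the plastid ribosome, had 7.58, 8.42 and 8.19 CPM at 2 h and 11.6, 12.4 and 11.8 CPM at 0 h (-0.57 ± 0.11, adjusted p = 0.012), and RPS1 had 28.2, 28.4 and 27.8 CPM at 2 h and 37.4, 35.6 and 34.0 CPM at 0 h (-0.34 ± 0.08, adjusted p = 0.0371). RPL15, RPL21C and EMB3137 fell by 0.51, 0.50 and 0.51, and each of these calls was lost in 5 or 6 refits. AT3G13120 fell as well and lost its call in each refit (adjusted p up to 0.1485). The list was not split by compartment, so its counts do not tell cytosolic from plastid ribosomes. The genes named here, PRPL11 among them, should not be read as cytosolic. PRPL11 lost its call without 2 h library 1 or 0 h library 2 (up to 0.0688) and RPS1 in each refit (up to 0.135). The 25 ribosome biogenesis genes had 0 calls and a median of -0.02 (-0.17 without 2 h library 2 to 0.07 without 2 h library 3). The list medians stood against a median of -0.03 over all features, and with RLE in place of TMM scaling the ribosomal, mitotic and aquaporin medians were -0.22, -0.41 and -0.45.

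The lists of other hormones held 1 to 3 calls each. With 2.19% of all features rising and 0.607% falling, 1 riser among 27, 38 or 30 genes is near the share of all features that rose. AT2G17500 (PILS5), an auxin carrier of the endoplasmic reticulum, had 385, 578 and 633 CPM at 2 h, 197, 216 and 250.3 CPM at 1 h and 271, 228 and 269 CPM at 0 h. It rose by 1.05 ± 0.19 (SE; adjusted p = 0.00633), was called in all 6 refits, and was the 1 member called among 27 auxin synthesis and transport genes (median 0.07, and 0.00 without 2 h library 2). Of 38 auxin response genes 1 rose, the repressor IAA28 (0.72; 201, 217 and 246 CPM at 2 h and 151, 120.3 and 131 CPM at 0 h), and 0 fell (median 0.16). It lost the call without 2 h or 0 h library 2 or 3 (up to 0.107). LOG7, which activates cytokinins, had 207, 164 and 205 CPM at 2 h and 101, 50.9 and 64.0 CPM at 0 h and was the 1 riser of 30 cytokinin genes (median 0.02, and -0.09 without 2 h library 2 and 0.13 without 2 h library 3; lost without 2 h library 3 or 0 h library 2 or 3, up to 0.0934). Of 28 gibberellin and brassinosteroid genes GA3OX2, the last step to active gibberellin, rose (6.21, 5.13 and 3.68 CPM at 2 h and 1.52, 1.80 and 1.17 CPM at 0 h, all 6 refits). BR6OX1 and BAS1, which make and inactivate brassinosteroids, fell by 0.86 and 0.47; BR6OX1 lost its call without 2 h library 1 or 2 or 0 h library 2 and BAS1 without any library but 0 h library 3 (up to 0.0855 and 0.174). The list median was -0.13. Of 28 ethylene genes 0 rose and 2 fell (median 0.15): ACS2, which makes the ethylene precursor, had 2.23, 2.56 and 3.46 CPM at 2 h and 8.90, 8.78 and 9.25 CPM at 0 h, and the response factor EBP had 3.14, 2.08 and 1.62 CPM at 2 h and 10.3, 5.39 and 5.54 CPM at 0 h. ACS2 lost its call without 2 h library 1 or 2 or 0 h library 2 or 3 and EBP without any library but 2 h library 1 (up to 0.0679 and 0.154).

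WOX5, the homeobox gene of the quiescent centre of the root tip, was the 1 gene of 39 stem cell and patterning genes to rise, a share near the 2.19% of all features, and 0 fell (median -0.01, and -0.11 to 0.05 when 1 library was left out). It had 7.05, 6.73 and 7.53 CPM at 2 h, 21.0, 13.9 and 13.6 CPM at 1 h and 1.90, 1.04 and 0.874 CPM at 0 h. The differences from 0 h were 2.48 ± 0.38 at 2 h and 3.67 at 1 h (adjusted p = 0.00242 and 6.71e-05), and the 2 h call was kept in all 6 refits. SCR and PLT1, regulators of the same stem cell niche, overlapped between the times. SCR had 59.97, 66.6 and 70.2 CPM at 2 h and 57.1, 68.0 and 62.3 CPM at 0 h, and PLT1 had 19.6, 18.9 and 11.8 CPM at 2 h and 16.2, 15.03 and 20.04 CPM at 0 h.

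Root hair genes had 2 risers of 37 (2.19% of all features rose), RHS18 and the NADPH oxidase gene RHD2 (RBOHC), and 0 that fell; the median was 0.30. RHD2, which makes the reactive oxygen that directs hair tip growth, had 164, 137 and 204 CPM at 2 h and 98.6, 109 and 105 CPM at 0 h (0.69 ± 0.14, adjusted p = 0.0154). RHS18, a peroxidase of root hairs, had 104, 97.4 and 126 CPM at 2 h and 62.3, 67.6 and 58.6 CPM at 0 h (0.80 ± 0.16, adjusted p = 0.0121). RHD2 lost its call without 2 h library 3 or 0 h library 1 or 3 (up to 0.0766), and RHS18 without 2 h or 0 h library 3 (up to 0.0693).

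Markers of the cell types of a root apex were all present. The summed levels of 3 of 10 marker lists did not overlap between the times, and those of the other 7 overlapped. The 5 root hair markers summed to 910, 645 and 1113 CPM at 2 h and 658, 539 and 511 CPM at 0 h, and the 3 markers of dividing cells to 86.8, 71.8 and 78.1 CPM at 2 h and 104, 103 and 108 CPM at 0 h. The 4 root cap markers summed to 56.1, 64.0 and 40.5 CPM at 2 h and 72.2, 65.6 and 77.2 CPM at 0 h, and the 2 of non-hair epidermis to 40.5, 37.1 and 33.8 CPM at 2 h and 51.0, 56.1 and 49.0 CPM at 0 h. The sums of dividing cells, root cap and non-hair epidermis were lower at 2 h without overlap. Meristem markers (6) ranged from 142 to 157 CPM at 2 h and from 132 to 146 CPM at 0 h. Their mean log2(CPM + 0.5) did not overlap, with 4.20, 4.37 and 4.14 at 2 h and 3.83, 3.88 and 3.96 at 0 h. Of the 6 differences, 3 were positive, among them WOX5, and 3 negative, with a median of -0.0006. Endodermis markers (4) ranged from 309 to 621 CPM at 2 h and from 376 to 511 CPM at 0 h. Xylem markers (5) ranged from 369 to 545.5 CPM at 2 h and from 359 to 437 CPM at 0 h, phloem markers (4) from 81.6 to 99.2 CPM at 2 h and from 66.7 to 88.2 CPM at 0 h, and pericycle markers (4) from 175 to 302 CPM at 2 h and from 289 to 357 CPM at 0 h. The 10 markers of shoot and photosynthetic cells, which a root apex should hold at low levels, summed to 100.0, 49.6 and 110.0 CPM at 2 h and 201, 118 and 97.4 CPM at 0 h. SYP111 is among the markers of dividing cells, RHD2 among those of root hair, and WOX5, SCR and PLT1 among those of the meristem. These sums therefore repeat values given above, and that of endodermis holds CASP1, given below. The part of the marker shifts in the differences above was not tested.

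**Figure D5:**
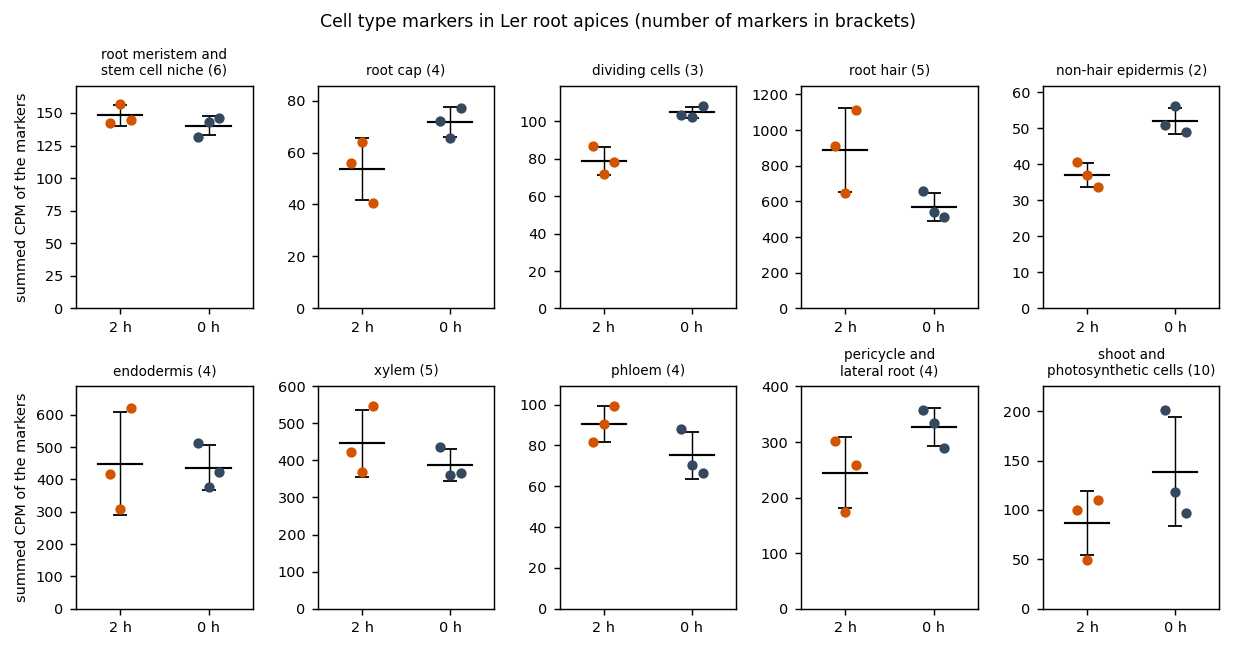
Summed CPM (y axis, linear, from 0) of the markers of 10 cell types in the 3 libraries at 2 h (left, orange) and at 0 h (right, dark), with mean and SD. The sums for dividing cells, root cap and non-hair epidermis are lower at 2 h without overlap, and the 2 h libraries spread most for endodermis and root hair.

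The remaining lists held few calls (of all features 2.19% rose and 0.607% fell). Of 34 clock genes PRR9, a morning repressor, and CDF1 (AT5G62430), a repressor of flowering genes, rose and 0 fell (median 0.18, and 0.02 without 0 h library 3). PRR9 had 15.8, 18.23 and 18.16 CPM at 2 h and 5.32, 6.53 and 3.57 CPM at 0 h (1.76 ± 0.25, adjusted p = 0.00152, all 6 refits); 41.1% of its 50-base exon stretches also occur at the neighbouring locus AT2G46670. CDF1 lost its call without 2 h library 2 or 0 h library 1 or 3 (up to 0.115). Of 34 sugar-starvation genes 0 rose and DIN4, of branched amino acid breakdown, fell (17.39, 22.8 and 16.9 CPM at 2 h and 28.4, 31.7 and 26.3 CPM at 0 h; lost without any library but 2 h library 2, up to 0.206), with a median of -0.18 (-0.06 without 0 h library 1 and -0.30 without 0 h library 3). Of 33 autophagy and senescence genes BCB rose (7.65, 26.8 and 17.5 CPM at 2 h and 1.36, 0.553 and 0.765 CPM at 0 h; lost without 0 h library 2 or 3, up to 0.0520), and 0 fell (median 0.06, and -0.06 without 2 h library 3). The 38 heat shock genes, the 25 Casparian strip and suberin genes and the 23 genes of small RNA machinery had 0 calls and medians of 0.35, 0.62 and -0.13. The Casparian strip median was 0.29 without 0 h library 2 and 0.30 without 2 h library 1, and that of small RNA machinery lay between -0.16 and -0.05 when 1 library was left out, the last without 0 h library 3 or 2 h library 3. In the Casparian strip list 2 of 25 members were above all 0 h libraries (11.3% of all features were). CASP1, a scaffold of the strip, had 161, 115 and 231 CPM at 2 h and 198, 140.3 and 161 CPM at 0 h.

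Set against Columbia over the same times, no feature passed the test of the difference between the accessions' 2 h changes (0 of 20599, 0%), although 3621 had an unadjusted p under 0.05 and DESeq2 called 133. In Col 1316 features (6.39%) changed at 2 h, 603 (2.93%) higher and 713 (3.46%) lower. The smallest p of the difference belonged to OCT6, an organic cation transporter, AAT1, an amino acid transporter, and AT2G45670, annotated as calcineurin-B-like. OCT6 had 42.0 ± 22.6 CPM at 2 h and 5.07 ± 0.52 CPM at 0 h in Ler, and 34.0 ± 10.99 CPM at 2 h and 37.9 ± 12.1 CPM at 0 h in Col (SD, n = 3 each). AAT1 had 5.24 ± 2.03 CPM at 2 h and 1.06 ± 0.06 CPM at 0 h in Ler, and 5.72 ± 0.33 CPM at 2 h and 5.42 ± 1.76 CPM at 0 h in Col. At 0 h the Ler mean was below the Col mean in both genes. The differences in change (Ler minus Col) were 3.204 ± 0.56, 2.22 ± 0.42 and 0.70 ± 0.13 (SE), each with an edgeR adjusted p of 0.227. Leaving out Col 0 h library 2 brought the count of features from 0 to 1355, while leaving out Ler 2 h library 1 gave 1 and the other libraries gave 0. Some lists had medians of opposite sign in the accessions, among them ribosomal proteins (-0.24 in Ler, 0.40 in Col), DNA replication (-0.12 in Ler, 0.33 in Col) and Casparian strip and suberin (0.62 in Ler, -0.86 in Col). By mean log2(CPM + 0.5), the times overlapped in Col for ribosomal proteins, in Ler for DNA replication and in both accessions for Casparian strip and suberin. In Col the ribosomal mean was 6.37, 6.58 and 6.39 at 2 h and 5.90, 6.44 and 5.95 at 0 h, with 0 h library 2 apart from the others. The differences between the accessions' medians were not tested.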

How the data were processed

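RNA was sequenced as stranded, paired-end poly(A) libraries, per the labels' protocols. The authors deposited raw counts per gene for each library; TAIR10, TopHat2 and Bowtie2 are named in the submitters' processing notes, and the counting settings are not given in the sources used here. The genome is that of Columbia. Features below edgeR's filterByExpr minimum (10 counts, 15 in all) were removed, 12253 of 32852. All 18 libraries were fitted with 1 mean per group (12 residual degrees of freedom) in edgeR 4.0.16 (limma 3.58.1, R 4.3.3) with TMM scaling, the quasi-likelihood test and Benjamini-Hochberg adjustment, after a test on simulated data. DESeq2 1.42.0, RLE scaling, other filters, a replicate block, the contrasted libraries alone and leaving out each library were alternatives. The biological coefficient of variation was 21.5%, and 14.8% with the replicate block. Libraries of a group had a Spearman correlation of 0.978 to 0.994.

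The comparison, the 44 gene lists and the 10 marker lists were chosen with earlier results of these data known, and 53 list names had no match. Named genes were the 12 largest rises and falls (adjusted p under 0.05, mean of at least 5 CPM, no overlap), up to 6 members per list by smallest p (up to 3 by level where fewer than 2 passed), and the 3 smallest p of the difference between accessions. Windows of 250 bases upstream of genes were searched on both strands for P1BS, the G-box (CACGTG), the evening element, the GCC-box (GCCGCC) and the W-box, which may overlap. Shares of all windows, of those of genes that rose and of those that fell were 7.23, 9.42 and 3.31% for the G-box, 2.45, 4.93 and 1.65% for the evening element, 1.91, 1.12 and 0.826% for the GCC-box and 45.3, 56.1 and 40.5% for the W-box. PHT1;2 and SPX3 were shown after their matches were seen. Shared stretches are 50 bases of exon. Python 3.11.15, numpy 2.4.6, pandas 2.3.3 and matplotlib 3.10.9 were used. Floors of 3 counts cover counting error only.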

Additional observations from a re-analysis of the deposited data

Results flagged for a closer look

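The mean log2(CPM + 0.5) of the 38 auxin response genes moved in opposite directions in the 2 accessions. It was 3.73, 3.83 and 3.68 at 2 h and 3.64, 3.63 and 3.54 at 0 h in Ler, a change of 0.15. In Col it was 3.76, 3.80 and 3.62 at 2 h and 3.95, 3.87 and 3.82 at 0 h, a change of -0.15. The libraries of the 2 times did not overlap in either accession, and the difference was not tested. The 44 gene lists and 10 marker lists were screened for means that moved in opposite directions without overlap. The lack of overlap is therefore the rule by which this list and the next were picked.

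The mean of the 5 root hair markers was 7.27, 6.85 and 7.59 at 2 h and 6.82, 6.63 and 6.51 at 0 h in Ler, a change of 0.58. In Col it was 7.21, 7.15 and 7.11 at 2 h and 7.47, 7.35 and 7.35 at 0 h, a change of -0.23. Again neither accession overlapped between the times, by the same rule, and the difference was not tested. The summed CPM of these markers did overlap between the times in Ler, with 645 in 2 h library 2 and 658 in 0 h library 1.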

How the results depend on the processing

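The count of 577 features for 2 h against 0 h was 1241 with DESeq2 (920 higher, 321 lower), 1825 with a replicate block, 1124 with the block on the contrasted libraries alone and 360 at a change of at least 2-fold; leaving out 1 library gave 227 to 488. It was 585 with RLE scaling, 530 without a filter, 553 at a mean of at least 1 CPM and 473 (418 higher, 55 lower) on the contrasted libraries alone. The 227 features for 2 h against 1 h became 835 with DESeq2, 1570 with the block, 2120 with the block on the contrasted libraries, 124 on those libraries without it and 148 at 2-fold, with 61 to 367 when 1 library was left out. For the difference between accessions the count of 0 became 133 with DESeq2, 79 with the block, 3 with the block on the contrasted libraries and 0 to 1355 when 1 library was left out.

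Of 144 named genes called, 51 kept the call in all 6 refits without 1 library, 143 with RLE and 144 with DESeq2. On the contrasted libraries alone 97 of 142 kept it, and no value of a called gene changed sign. Named genes that were not called could change sign, as SQD2 did (-0.20 to 0.11 over the 6 refits). Replicate numbers were not treated as pairs: deviations of same-numbered libraries correlated at 0.398, 0.302 and 0.032, the last below 0.1. Each 2 h library did correlate best with the 0 h library of its own number, a hint from the data and not the design, and the block kept all 144 named calls. Genes of a few counts, such as those at or under 3 counts at 0 h, are limited by depth.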

Other observations

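Several gene groups outside the lists above were picked after their values were seen, so their counts are descriptions with no test. Of 20 genes for chorismate and phenylalanine synthesis, which feed the phenylpropanoid pathway, 5 rose (2.19% of all features did) and 0 fell (median 0.28). DHS1, the entry enzyme of the shikimate pathway, had 214, 208 and 223 CPM at 2 h and 138, 114 and 131 CPM at 0 h, and the arogenate dehydratase gene ADT4 rose by 1.18. Of 25 light and UV-B genes 10 rose and 0 fell (median 0.73). ELIP1, a protein of light-stressed plastids, had 166, 269.6 and 178 CPM at 2 h and 22.5, 27.9 and 18.3 CPM at 0 h, and the sigma factor gene SIGE rose by 1.90. These 4 calls were kept in all 6 refits.

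Of 7 phytosulfokine genes 3 rose (2.19% of all features did) and 0 fell (median 0.62). Among those that rose was PSK4 with 48.8, 69.7 and 59.8 CPM at 2 h and 23.1, 21.1 and 13.7 CPM at 0 h. Of 6 FtsH proteases 3 rose and 0 fell (median 0.68), and VAR2 rose by 0.81. Of 49 lipid-transfer proteins 4 rose and 5 fell (2.19% and 0.607% of all features did). Their median was 0.17, and 0.40 without 0 h library 1 and -0.05 without 2 h library 1. EARLI1 had 4.85, 4.77 and 5.16 CPM at 2 h and 0.0389, 0 and 0.0364 CPM at 0 h, where all 3 libraries lay under 3 counts. AT4G12510 and AT4G12520, which share 51.8% and 58.1% of their 50-base exon stretches, fell by 0.97 and 0.83 on the log2 scale.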
